A study of Mus musculus with 6 samples.

Results

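The 10 genes described here encode the core of the major histocompatibility complex (MHC) class I presentation pathway and the catalytic subunits of the immunoproteasome: B2m, H2-K1, H2-D1, Tap1, Tap2, Tapbp, Psmb8, Psmb9, Psmb10 and Nlrc5. They were chosen by symbol, were matched by gene identifier to the deposited count table, and are 10 of its 45777 genes. All 10 passed the filter on low counts, which kept 16188 genes.

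RNA from the tibialis anterior (TA), a fast muscle of the lower hind leg, was sequenced from old male C57BL/6J mice. The study asked how BML-260, a small molecule inhibitor of the phosphatase DUSP22, changed gene expression in wasting aged muscle. All 6 libraries are labelled as 24 months of age; other ages for these animals appear in the text of the study. The 3 control libraries came from mice given vehicle alone (DMSO with Tween 80), and the 3 treated libraries from mice given 5 mg/kg BML-260 by daily intraperitoneal injection for 1 month. The labels name no altered allele and no other agent.

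Nearly every nucleated cell displays fragments of its own proteins on class I molecules, each made of a polymorphic heavy chain and the invariant light chain beta-2 microglobulin. The fragments are cut by the proteasome, pumped into the endoplasmic reticulum by the TAP transporter and fitted into the heavy chain with the help of tapasin, and the finished complex is inspected by CD8 T cells and NK cells. Interferons raise the whole pathway, and resting muscle fibers are known for displaying little class I on their surface, so that much of the class I RNA of a whole muscle can come from endothelial, connective tissue and blood-derived cells.

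The libraries held between 39522890 and 56998875 counts. All 7 skeletal muscle fiber markers examined were detected in every library. Their summed normalized counts were lowest in vehicle replicate 3, at 3037268 against 4714128 to 5691413 in the other libraries. Vehicle replicate 3 stood apart: it had the highest TMM scaling factor (1.20, against 0.914 to 1.02 in the other libraries) and was the highest of the 6 libraries for 32.3% of all tested genes. Fold changes of the 10 genes, ratios and list medians are therefore also given without it. With the quasi-likelihood test of edgeR and Benjamini-Hochberg adjustment, 0 of 16188 genes had an adjusted p under 0.05, whereas 966 (5.97%) had an unadjusted p under 0.05 and DESeq2's Wald test gave 95 adjusted calls. A looser threshold (1.3-fold or more, together with p below 0.05 before adjustment) was passed by 931 genes (5.75%), 786 of them lower with BML-260 (4.86%) and 145 higher (0.896%). "Past the threshold" refers to this unadjusted criterion throughout.

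With BML-260, 5 of the 10 genes were lower past the threshold (4.86% of all tested genes were) and 0 were higher. These were the light chain gene B2m, the heavy chain gene H2-D1, the immunoproteasome subunit Psmb8, the transporter subunit Tap1 and the class I transactivator Nlrc5. The log2 fold change was below 0 for 9 of the 10, against 50.5% of all tested genes, with a median of -0.39 beside -0.0039 over all tested genes. For 3 of the 10 (B2m, Psmb8 and Nlrc5) every BML-260 library lay below every vehicle library, as for 6.70% of all tested genes, and for 0 of the 10 the reverse held (5.43% of all tested genes). No adjusted p was below 0.631 in edgeR. The count of 5 rested on most of the libraries: it was 3 without vehicle replicate 1, 3 without vehicle replicate 3, 3 without BML-260 replicate 1 and 2 without BML-260 replicate 2. Of all genes tested in these fits, 8.30%, 2.92%, 3.61% and 2.62% in turn were lower past the threshold (3.98% in either direction without vehicle replicate 3). Without vehicle replicate 3 the median was -0.29 and 9 genes were again below 0.

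**Figure D1:**
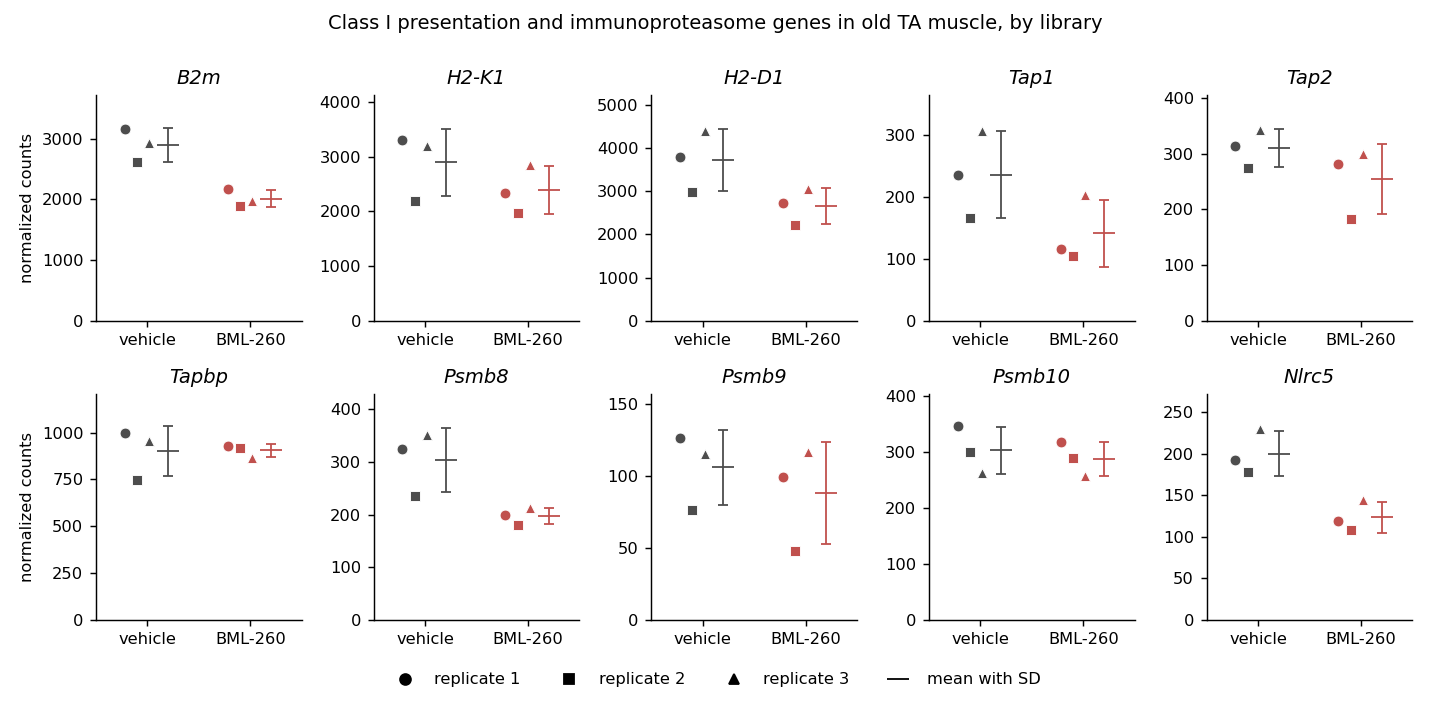
Normalized counts (y axis, from 0) of the 10 genes in the 3 vehicle and 3 BML-260 libraries. Each symbol is 1 library and the bars give the mean with its SD. The groups are separate for B2m, Psmb8 and Nlrc5 and overlap for the other 7 genes, and Tapbp has means of 900 and 905.

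The sequences below lie just upstream of the 4 genes past the threshold for which RefSeq promoter entries (GRCm38.p6, the assembly equal to the mm10 build of the submitters' processing notes) were given, and are shown because the pathway is known to be switched on through short elements near its start sites. Capitals mark matches to the interferon-stimulated response element (GAAANNGAAA), the gamma-activated sequence (TTCNNNGAA) or the CCAAT box (CCAAT, or ATTGG on the opposite strand), searched on both strands. All run 5′ to 3′ on the + strand.
B2m, chr2:122147533-122147653: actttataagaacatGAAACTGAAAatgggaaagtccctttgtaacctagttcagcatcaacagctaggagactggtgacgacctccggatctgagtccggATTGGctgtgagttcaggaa
Psmb8, chr17:34198058-34198146: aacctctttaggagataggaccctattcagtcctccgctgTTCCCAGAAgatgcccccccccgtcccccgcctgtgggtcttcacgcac
Tap1, chr17:34187331-34187555: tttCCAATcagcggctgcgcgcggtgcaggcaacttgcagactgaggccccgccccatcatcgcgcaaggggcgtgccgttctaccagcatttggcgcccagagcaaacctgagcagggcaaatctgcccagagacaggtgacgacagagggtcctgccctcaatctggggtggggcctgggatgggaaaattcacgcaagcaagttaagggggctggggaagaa
H2-D1, chr17:35262958-35263065: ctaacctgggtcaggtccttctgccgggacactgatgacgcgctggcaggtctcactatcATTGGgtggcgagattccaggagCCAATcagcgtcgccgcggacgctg

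Promoter entries, each of 250 bases before and 50 bases after a start site, were found for 8 of the 10 genes and not for Tap2 and Nlrc5. The interferon-stimulated response element, the site of interferon regulatory factors, was matched in 1 of the 8, in B2m at 139 bases before its start, and in 3.44% of all 32851 promoters. The gamma-activated sequence, an element of genes that respond to interferon gamma, was matched in 1 of the 8, in Psmb8 at 97 bases before its start, and in 8.30% of all promoters. CCAAT boxes were matched in 6 of the 8 and in 37.4% of all promoters. The matches of Tap1 (222 bases before its start) and Psmb9 (8 bases before its start) are the same bases between these genes, read on opposite strands. That 1 site is therefore counted for both genes. The counts among the 8 are of genes with a match in any of their entries, whereas the shares are of promoter entries. The matches in the printed stretches do not overlap each other. They describe letters in these windows only, and binding was not measured.

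Among the structural chains, B2m, which encodes the light chain without which heavy chains do not reach the surface, lies on chromosome 2 (chr2:122147687-122153082). It had 3158, 2614 and 2923 normalized counts in vehicle replicates 1, 2 and 3, and 2168, 1897 and 1975 in BML-260 replicates 1, 2 and 3. Each BML-260 library lay below the lowest vehicle library, with means of 2898 ± 273 and 2013 ± 140 (SD, n = 3 each). The log2 fold change by edgeR was -0.53 (SE 0.14, unadjusted p = 0.0047, adjusted p = 0.631). It was -0.53 without vehicle replicate 3 and between -0.59 and -0.46 whichever single library was left out. B2m passed the threshold under all 17 alternatives to this test, and was the only one of the 10 to do so; the adjusted p was between 0.113 and 0.984 across them.

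H2-D1 (chr17:35263094-35267497), a heavy chain gene that presents peptides to CD8 T cells, had 3795, 2977 and 4395 normalized counts in vehicle replicates 1, 2 and 3 and 2715, 2213 and 3046 in BML-260 replicates 1, 2 and 3. BML-260 replicate 3 exceeded vehicle replicate 2, so the groups overlapped. The edgeR log2 fold change was -0.49 (SE 0.19, unadjusted p = 0.032, adjusted p = 0.788), and without vehicle replicate 3 it was -0.36 and no longer past the threshold. H2-D1 kept its side of the threshold under 9 of 17 alternatives.

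H2-K1 (chr17:33996012-34000619), the other classical heavy chain gene of this strain, had 3309, 2187 and 3187 normalized counts in the vehicle libraries and 2340, 1969 and 2847 in the BML-260 libraries. Vehicle replicate 2 was lower than BML-260 replicates 1 and 3. Its log2 fold change of -0.28 (SE 0.21, unadjusted p = 0.21, adjusted p = 0.788 by edgeR) did not pass the threshold. It was -0.21 without vehicle replicate 3, -0.17 without vehicle replicate 1, -0.15 without BML-260 replicate 2 and -0.44 without vehicle replicate 2. H2-K1 and H2-D1 share long stretches of sequence with each other and with the H2-Q and H2-T genes, and how the authors assigned reads that map to several genes is not given in the sources used here, so their separate values are uncertain.

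TPM, which is scaled for transcript length, allows levels to be compared between genes. In the vehicle group the order was B2m (133 ± 32.2 TPM), H2-D1 (86.3 ± 34.0), H2-K1 (68.5 ± 24.1), Tapbp (13.0 ± 3.90), Psmb8 (9.94 ± 3.81), Psmb10 (9.22 ± 1.12), Tap2 (4.96 ± 1.57), Psmb9 (4.67 ± 1.64), Tap1 (3.27 ± 1.64) and Nlrc5 (1.05 ± 0.374; SD, n = 3 each). The order was the same with BML-260 except that Psmb10 (7.86 ± 0.499 TPM) stood above Psmb8 (5.62 ± 0.595 TPM). Psmb8 was above Psmb10 in only 1 of the 6 libraries, vehicle replicate 3 (14.0 against 10.1 TPM). The vehicle order of these 2 genes rested on that library. Vehicle ranges of neighbours did not overlap between H2-K1 and Tapbp, between Psmb10 and Tap2, and between Tap1 and Nlrc5. The other 6 neighbouring pairs overlapped in range. Within a library, B2m was above H2-D1, H2-D1 above H2-K1, Tapbp above Psmb8 and Psmb9 above Tap1 in 6 of 6. Tap2 was above Psmb9 in 4 of 6. The TPM of all 10 genes was highest in vehicle replicate 3, whereas by normalized counts that library was highest for 5 of the 10.

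The sum of H2-K1 and H2-D1 TPM per B2m TPM gave classical heavy chain transcripts per light chain transcript, without the other heavy chain genes. It was 1.13, 0.989 and 1.29 in vehicle replicates 1, 2 and 3 and 1.17, 1.11 and 1.50 in BML-260 replicates 1, 2 and 3. The groups overlapped, and the exact permutation test (two-sided) gave p = 0.5 for a log2 difference of 0.14 (adjusted p over the 4 ratios examined = 0.5). Without vehicle replicate 3 the difference was 0.24. An exact permutation test of 3 against 3 libraries cannot go below p = 0.1. Among 11 class I heavy chain genes, H2-D1 held 39.2% ± 2.54 of the summed TPM in vehicle and 36.0% ± 0.252 with BML-260, and H2-K1 31.3% ± 1.65 and 33.2% ± 1.25 (SD, n = 3 each). H2-T22, a nonclassical heavy chain gene, held 8.03% ± 0.554 and 10.9% ± 1.94.

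Peptide supply came next. Psmb8, Psmb9 and Psmb10 encode the catalytic subunits that take the places of Psmb5, Psmb6 and Psmb7 when an immunoproteasome is built, which alters the peptide ends it produces. Psmb8 (chr17:34198195-34201454) had 324, 235 and 351 normalized counts in vehicle replicates 1, 2 and 3 and 199, 181 and 213 in BML-260 replicates 1, 2 and 3. All BML-260 libraries were below all vehicle libraries, and the BML-260 values lay close together (197 ± 15.9, SD, n = 3). The edgeR log2 fold change was -0.62 (SE 0.20, unadjusted p = 0.014, adjusted p = 0.733) and -0.51 without vehicle replicate 3, still past the threshold. Only the removal of BML-260 replicate 2 and the shrunken fold change of apeglm, among 17 alternatives, left it short of the threshold.

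Psmb9 (chr17:34182030-34187330) had 126, 76.2 and 115 normalized counts in the vehicle libraries and 99.4, 48.0 and 116 in the BML-260 libraries. BML-260 replicate 3 stood among the vehicle values and replicate 2 stood below all others. Its log2 fold change by edgeR was -0.27 (SE 0.37, adjusted p = 0.853), the largest standard error of the 10, at raw counts of 48 to 154 a library. Leaving out BML-260 replicate 2 turned it to 0.027, and without vehicle replicate 3 it was -0.22.

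Psmb10 (chr8:105935728-105938392) had 346, 300 and 263 normalized counts in vehicle and 317, 289 and 257 with BML-260. BML-260 replicates 1 and 2 lay within the vehicle range, and replicate 3 just below it. Its log2 fold change was -0.08 (SE 0.18, adjusted p = 0.915 by edgeR) and turned to 0.034 when vehicle replicate 1 was left out, and was -0.17 without vehicle replicate 3.

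Against their standard counterparts the immunoproteasome subunits were minor transcripts. Psmb8 TPM was 0.0659, 0.0581 and 0.0966 of Psmb5 TPM in vehicle replicates 1, 2 and 3 and 0.0441, 0.0463 and 0.0552 in BML-260 replicates 1, 2 and 3, without overlap. The log2 difference of this ratio was -0.57, with the smallest p the exact permutation test can give (0.1, adjusted over the 4 ratios 0.2). Psmb10 TPM per Psmb7 TPM also did not overlap, at 0.0252 ± 0.000354 in vehicle and 0.0231 ± 0.00117 with BML-260 (SD, n = 3), a log2 difference of -0.12 with the same exact p of 0.1. Psmb9 TPM per Psmb6 TPM was 0.0263, 0.0191 and 0.0283 in vehicle and 0.0195, 0.00986 and 0.0262 with BML-260, which overlapped (log2 difference -0.50, exact p = 0.4). Without vehicle replicate 3 the log2 differences were -0.36 for Psmb8 to Psmb5, -0.13 for Psmb10 to Psmb7 and -0.39 for Psmb9 to Psmb6. The standard subunits themselves had edgeR log2 fold changes of -0.04 (Psmb5, SE 0.16), 0.05 (Psmb6, SE 0.16) and 0.04 (Psmb7, SE 0.17).

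**Figure D2:**
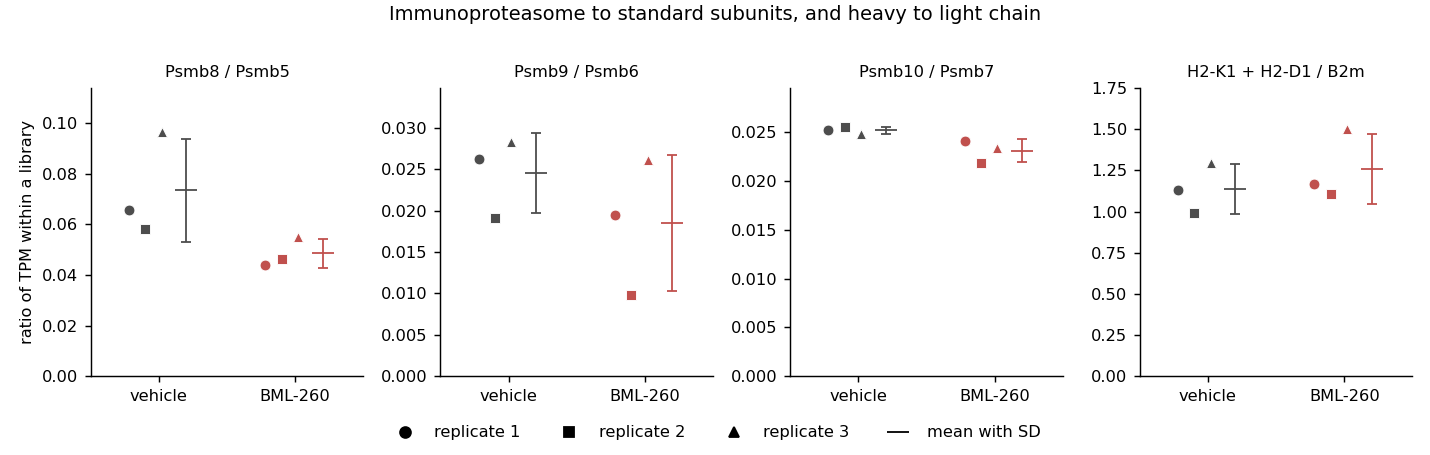
Ratio of TPM within each library (y axis, from 0) for each immunoproteasome subunit over the standard subunit it replaces, and for both classical heavy chains over B2m. Symbols are libraries and bars the mean with its SD; the groups are separate for Psmb8 over Psmb5 and for Psmb10 over Psmb7.

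Of 8 related proteasome genes (the 3 standard catalytic subunits, 4 activator subunits and the assembly factor Pomp), 0 were past the threshold in either direction (5.75% of all tested genes were). Their median log2 fold change was 0.05 (-0.03 without vehicle replicate 3). Psme1 and Psme2, whose products form the PA28 cap that opens the core particle, had log2 fold changes of 0.0024 (SE 0.22) and 0.11 (SE 0.17).

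Transport and loading followed. Tap1 and Tap2 encode the subunits of the peptide pump of the endoplasmic reticulum. Tap1 (chr17:34187556-34197225) had 236, 166 and 307 normalized counts in vehicle replicates 1, 2 and 3 and 116, 104 and 204 in BML-260 replicates 1, 2 and 3. BML-260 replicate 3 lay above vehicle replicate 2, and the other BML-260 libraries lay below all vehicle libraries. With -0.75 (SE 0.33, unadjusted p = 0.048, adjusted p = 0.788 by edgeR) it had the lowest log2 fold change of the 10. Its p was also the closest to the threshold: it was past it under 8 of 17 alternatives and not without vehicle replicate 3 (-0.53, unadjusted p = 0.11).

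Tap2 (chr17:34204479-34216321) had 314, 274 and 343 normalized counts in vehicle and 281, 183 and 299 with BML-260. Only BML-260 replicate 2 was below all vehicle libraries, and the log2 fold change was -0.29 (SE 0.22, adjusted p = 0.794 by edgeR). It was -0.22 without vehicle replicate 3 and -0.09 without BML-260 replicate 2. Tapbp (chr17:33919478-33929290), which encodes tapasin, the bridge between TAP and the empty heavy chain, had 999, 747 and 952 normalized counts in vehicle and 931, 919 and 864 with BML-260. The BML-260 libraries lay within the vehicle range, and the log2 fold change of 0.0052 (SE 0.15, adjusted p = 0.994) changed sign under 5 of 17 alternatives, among them upper quartile scaling (-0.014), and was 0.04 without vehicle replicate 3.

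Psmb9, Tap1, Psmb8 and Tap2 follow each other on chromosome 17 within 34292 bases. The interval between Psmb9 and Tap1 is 225 bases long and is the Tap1 stretch printed above, so that both genes are read outward from it in opposite directions. Their log2 fold changes along the chromosome were -0.27, -0.75, -0.62 and -0.29, and the inner pair was past the threshold. A difference between neighbours was not tested.

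Of 8 further loading and trimming factors (chaperones such as Calr, Canx and Pdia3, the peptidase Erap1 and others), 0 were past the threshold in either direction (5.75% of all tested genes were). Their median log2 fold change was -0.11 with all libraries and 0.04 without vehicle replicate 3.

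Nlrc5 (chr8:94434335-94527272) encodes the transactivator that binds class I promoters through the RFX proteins and drives the heavy chains, B2m, Tap1 and Psmb9. It was the least abundant of the 10 by TPM and had 192, 178 and 230 normalized counts in vehicle replicates 1, 2 and 3 and 118, 108 and 144 in BML-260 replicates 1, 2 and 3. No BML-260 library reached the lowest vehicle library (200 ± 26.8 in vehicle and 124 ± 18.6 with BML-260, SD, n = 3 each). The edgeR log2 fold change was -0.70 (SE 0.22, unadjusted p = 0.011, adjusted p = 0.699) and -0.59 without vehicle replicate 3, still past the threshold. It was past the threshold under 14 of 17 alternatives, including every one that left out a single library.

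**Figure D3:**
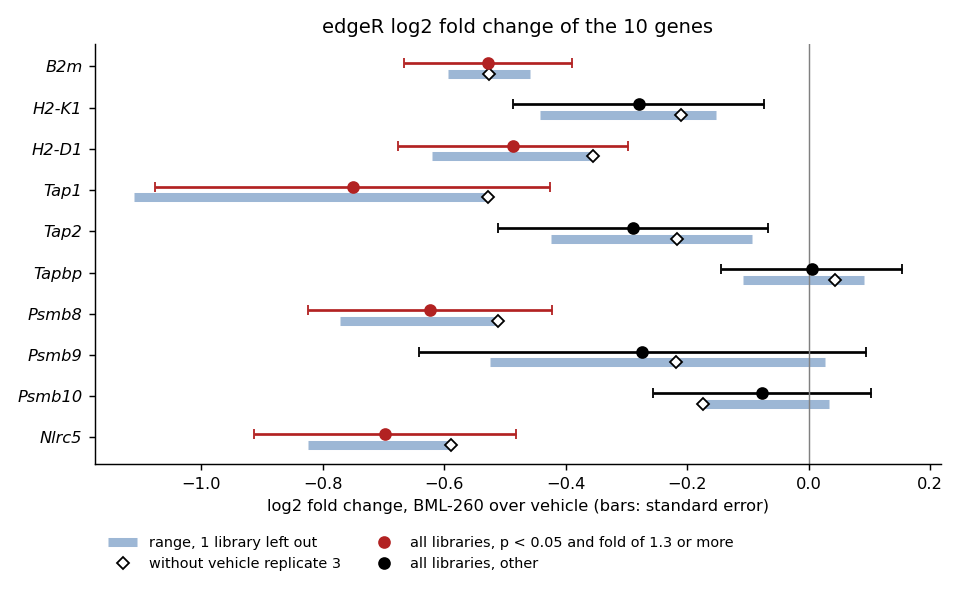
Log2 fold change of BML-260 over vehicle (x axis) for the 10 genes, with points and standard errors from edgeR on all 6 libraries, blue bars for the range when 1 library at a time was left out, and open diamonds without vehicle replicate 3. B2m, H2-D1, Tap1, Psmb8 and Nlrc5 (red) are past the threshold, and the blue bars of Tapbp, Psmb9 and Psmb10 cross 0.

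Log2 CPM, here counts scaled to the library total times its TMM factor, was centred on each gene's mean and averaged over the 10 genes. It stood at 0.32, -0.05 and 0.34 in vehicle replicates 1, 2 and 3. In BML-260 replicates 1, 2 and 3 it stood at -0.15, -0.45 and -0.0010. BML-260 replicate 3 lay slightly above vehicle replicate 2, so the groups overlapped in this average too. Tap1 and Psmb10 departed most from this average, each with a root mean square distance of 0.30 over the 6 libraries, and H2-D1 least, with 0.07. Among 16178 other tested genes, the curated genes nearest to the average were Zfp593 (distance 0.05), Tbc1d10a (0.05), Pde9a (0.05), Ahnak2 (0.08) and Phc2 (0.08), against a median distance of 0.39. Their log2 fold changes ranged from -0.42 (Pde9a) to -0.27 (Ahnak2), and 0 of the 5 were past the threshold.

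Related genes were read from lists. Of 18 other class I heavy chain, class I-like and B2m-binding molecules, 14 passed the low-count filter. With all libraries, 12 had a log2 fold change below 0 (50.5% of all tested genes did) and 2 were lower past the threshold (4.86%). Without vehicle replicate 3, 9 of the 14 were below 0 and 3 were lower past the threshold (2.92% of all tested genes were). The median was -0.31, and -0.22 without that library. The 2 past the threshold with all libraries were nonclassical heavy chain genes of the Q region. H2-Q4 had 640, 536 and 569 normalized counts in vehicle and 353, 370 and 505 with BML-260, a log2 fold change of -0.51 (SE 0.18, adjusted p = 0.788 by edgeR). H2-Q6 had 540, 474 and 393 in vehicle and 288, 274 and 362 with BML-260, a log2 fold change of -0.61 (SE 0.19, adjusted p = 0.699). For both, all BML-260 libraries were below all vehicle libraries, and both kept their place past the threshold without vehicle replicate 3 (-0.53 and -0.73), under the same uncertainty of read assignment as H2-K1 and H2-D1. The most abundant of the list by TPM, Fcgrt, whose product pairs with B2m to recycle IgG, and Mr1, whose product presents vitamin metabolites, had log2 fold changes of -0.0027 (SE 0.18) and -0.05 (SE 0.13).

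Of 20 interferon pathway genes and Nlrc5 partners, 18 passed the filter, with a median log2 fold change of -0.09 (-0.08 without vehicle replicate 3). Past the threshold, 1 of the 18 was lower (4.86% of all tested genes were) and 0 were higher (0.896%). That gene was Socs3, a feedback inhibitor of cytokine receptors, with 215, 151 and 1814 normalized counts in vehicle and 74.3, 88.0 and 166 with BML-260. Its log2 fold change of -2.74 (SE 0.90, adjusted p = 0.743 by edgeR) was -0.76 without vehicle replicate 3, which held most of its vehicle counts. Irf1, a transcription factor induced by interferons, had 481, 281 and 515 normalized counts in vehicle and 344, 291 and 319 with BML-260, a log2 fold change of -0.42 (SE 0.23; -0.27 without vehicle replicate 3) that did not pass the threshold. The interferon genes Ifng and Ifnb1 had at most 2 raw counts in any library.

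**Figure D4:**
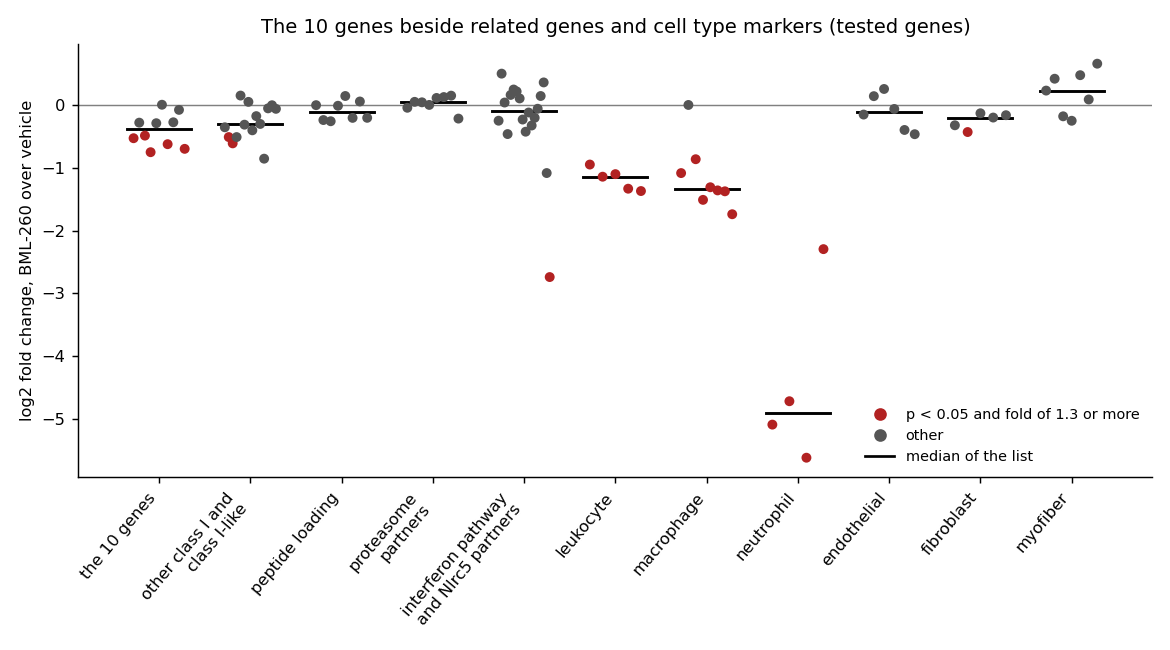
Log2 fold change of BML-260 over vehicle (y axis) for tested genes of each list (x axis); each point is a gene, red where past the threshold, and black lines are list medians. The medians are -0.39 for the 10 genes, -0.31 for other class I molecules, 0.05 for proteasome partners, -1.14 for leukocyte and -1.33 for macrophage markers (-0.70 and -0.57 without vehicle replicate 3).

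Pan-leukocyte, macrophage and neutrophil markers were lower with BML-260 as well. Of all tested genes, 4.86% were lower past the threshold with all libraries and 2.92% without vehicle replicate 3. That library was the highest for 5 of 5 tested pan-leukocyte, 8 of 8 macrophage and 4 of 4 neutrophil markers (32.3% of all tested genes). All 5 pan-leukocyte markers (among them Ptprc, which encodes CD45) were lower past the threshold, with summed normalized counts of 1099 to 2231 in vehicle and 594 to 812 with BML-260. Of 8 macrophage markers 7 were lower past the threshold, with sums of 5417 to 15968 and 3427 to 4013, and the exception was Cd68 with a log2 fold change of 0.0018. Without vehicle replicate 3 these counts were 4 of 5 and 5 of 8, and the median log2 fold changes were -0.70 in place of -1.14 and -0.57 in place of -1.33. All 4 neutrophil markers that could be tested were lower past the threshold, with sums of 381 to 8045 and 97.0 to 218, and 4 were also past it without that library, with a median of -3.47 in place of -4.90.

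Transcripts that mark T and NK cells, which read class I, were few. The 8 T cell markers, including Cd3e and Cd8a, had at most 13 raw counts in any library and summed to 23.8 to 62.3 normalized counts in vehicle and at most 25.9 with BML-260. The 5 NK cell markers had at most 11 raw counts. None of either list passed the low-count filter. Of 7 receptors and coreceptors of class I, 2 were tested. Klrk1, at 0 to 26 raw counts a library, had a log2 fold change of 0.37 (SE 1.01, adjusted p = 0.926 by edgeR). Without vehicle replicate 3 it was 0.09. Pirb, an inhibitory class I receptor of myeloid and B cells, was lower past the threshold (4.86% of all tested genes were). It had 164, 85.1 and 283 normalized counts in vehicle and 84.7, 70.0 and 52.5 with BML-260, without overlap, and a log2 fold change of -1.36 (SE 0.42, adjusted p = 0.699 by edgeR; -0.86 without vehicle replicate 3).

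Of 6 endothelial markers 0 were past the threshold (median log2 fold change -0.11). Of 5 fibroblast markers 1 was lower past it (median -0.20), as were 4.86% of all tested genes. Of 7 muscle fiber markers 0 were past it (median 0.23). Without vehicle replicate 3 these medians were -0.04, -0.31 and 0.13. Of 5 dendritic cell markers 3 were tested and 0 were past the threshold (median -0.38, and -0.17 without vehicle replicate 3), and 1 of 4 B cell markers was tested (0.18, not past the threshold). The part of leukocytes in the lower B2m, H2-D1, Psmb8, Tap1 and Nlrc5 was not tested. In whole muscle, fewer cells of a type and less RNA per cell cannot be told apart.

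**Figure D5:**
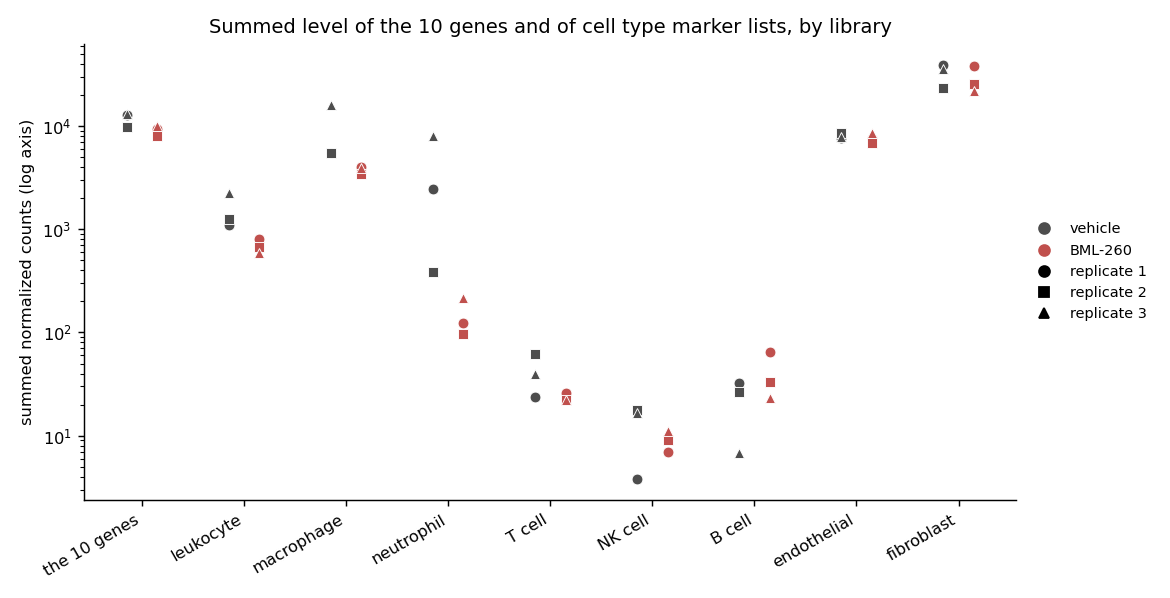
Summed normalized counts (y axis, log scale) of the 10 genes and of marker lists by library; grey symbols are vehicle, red symbols BML-260, and shapes the replicate numbers. Leukocyte, macrophage and neutrophil sums are higher in all vehicle libraries than in all BML-260 libraries, and vehicle replicate 3 is the highest for each.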

How the data were processed

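RNA was extracted with TRIzol and total RNA libraries were made with a stranded kit. Per the labels, the submitters' processing notes name StringTie 2.1.3b, Bowtie2 2.3.4.1, Trimmomatic 0.38, HISAT2 2.1.0 and the build mm10, without their roles. The authors deposited raw read counts per gene for all 6 libraries in 1 table of 45777 genes, without normalization. They also deposited TPM values of 16800 genes for each library, which paired gene identifiers with symbols. Whether counting used strand, and how multi-mapped reads were treated, is not given in the sources used here.

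BML-260 was compared with vehicle in edgeR 4.0.16 under R 4.3.3 (filterByExpr, TMM, quasi-likelihood test, Benjamini-Hochberg adjustment over 16188 genes) on all 6 libraries. Standard errors of fold changes came from the F statistic. Normalized counts are counts divided by DESeq2 1.42.0 size factors. Ratios of TPM within a library were compared on the log2 scale by exact permutation tests (two-sided). The 17 alternatives were leaving out each library, a replicate block, RLE or upper quartile scaling, no filter beyond 1 count a gene, a minimum of 10 counts in each library, DESeq2's Wald test, apeglm 1.24.0 shrinkage, limma 3.58.1 voom with quality weights, the robust edgeR test, and limma on log2(TPM + 1) and log2(TPM + 0.1). The edgeR, DESeq2, voom and limma tests were run on counts simulated with the same dispersion for all genes and no outlying library. There limma used scaled counts in place of TPM. The permutation tests, the replicate block and apeglm were not checked on simulated counts.

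The 10 genes and all lists were chosen with earlier results of these data known. Of the related lists, genes past the threshold, Psmb5, Psmb6, Psmb7, Psme1, Psme2, Irf1 and the 2 most abundant class I-like genes by TPM were named. An item that this rule also names is not reported here. The genes most like the 10 were ranked by root mean square distance of centred log2 CPM (TMM scaling, prior count 2). Cd68, Klrk1, Ifng, Ifnb1, H2-T22, the loading factors and single markers were named after their values were seen. The study's methods give 3 mice a group, whereas the labels only number the libraries, so p-values measure the spread between these libraries. Plots were made in Python 3.11.15 with matplotlib 3.10.9.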

Additional observations from a re-analysis of the deposited data

How the results depend on the processing

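The direction of B2m, H2-D1, H2-K1, Psmb8, Tap1, Tap2 and Nlrc5 was below 0 under all 17 alternatives. The sign changed for Tapbp with upper quartile scaling (-0.014), limma on log2(TPM + 1) (-0.13), limma on log2(TPM + 0.1) (-0.14), without vehicle replicate 2 (-0.11) and without BML-260 replicate 1 (-0.014), for Psmb10 without vehicle replicate 1 (0.034), and for Psmb9 without BML-260 replicate 2 (0.027). With 1 library left out at a time, Tapbp ranged from -0.11 to 0.090, Psmb10 from -0.17 to 0.034 and Psmb9 from -0.52 to 0.027. Of the 10 genes, 1 was lower past the threshold with apeglm (B2m), 3 with voom, 2 with log2(TPM + 1) and 2 with log2(TPM + 0.1). Of all genes in these fits, 97 of 16188, 635 of 16188, 393 of 16800 and 601 of 16800 in turn were lower past it. The median log2 fold change of the 10 genes was -0.0016 with apeglm, which pulls uncertain changes to 0. It was -0.60 with log2(TPM + 0.1), where the median of all genes was -0.14. Leaving out 1 library at a time gave 2 to 5 genes past the threshold and a median of -0.52 to -0.26. For the log2 difference of the ratios it gave -0.72 to -0.36 (Psmb8 to Psmb5), -0.81 to -0.10 (Psmb9 to Psmb6), -0.16 to -0.08 (Psmb10 to Psmb7) and 0.0075 to 0.24 (heavy to light chain).

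Over all genes, those past the threshold numbered 1416 with no filter, 113 with apeglm, 446 with log2(TPM + 1) and 503 to 2223 with 1 library left out. Adjusted calls numbered 1 with no filter, 1 with at least 10 counts in every library, 1 with voom and 1 with the robust test. They numbered 95 with DESeq2's Wald test and 0 to 9 with 1 library left out. The fit with apeglm kept the p-values of the Wald test, so its 95 calls are the same ones. The causes of these shifts were not tested.

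With the replicate number as a block, 5 of the 10 genes were past the threshold with a median of -0.40, 1057 genes passed it and 0 had an adjusted p under 0.05; an exact test of 3 pairs cannot give less than 0.25, the value for each ratio. Same-numbered libraries deviated together with correlations across genes of 0.16, 0.05 and 0.11, not all above 0.1, so the numbers were not taken as pairs, although every library correlated best with its own number. The marker and related lists were recomputed without vehicle replicate 3 after its values were seen. No T cell or NK cell marker had enough counts to be tested.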
